A study of Mus musculus with 2 samples.

Results

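The *Dlk1*-*Meg3* and *H19* loci are imprinted regions of the mouse genome, in which a gene is transcribed mainly from the chromosome inherited from 1 of the parents. The genes described were listed by name, namely *Dlk1*, *Meg3*, *Rian*, *Mirg* and *Dio3* of the first locus and *H19* and *Igf2* of the second, and 6 of these 7 were found among the 31053 genes counted in both libraries, while *Rian* was not analysed here. Mouse embryonic stem cells (mESCs) of the E14 line, grown without feeder cells on gelatin in serum and LIF (SL), were profiled by droplet single-cell RNA-seq that counts 3′ tags of each transcript with unique molecular identifiers (UMIs). The study asked how BMP signalling through SMAD1 and SMAD5 bears on the state of these cells. It compared the parental wild type (WT) cells with cells in which *Smad1* and *Smad5* were edited by CRISPR-Cas9 (S1/5 dKO), both in the same medium. Each group was 1 library of 1 line, so no difference between them has a replicate check, a difference between lines and an effect of the genotype cannot be told apart, and no p-value is given.

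Imprinted loci carry differentially methylated control regions that are set in the germ line, and these decide which parental copy is read. At the *Dlk1*-*Dio3* domain the maternal chromosome gives the long noncoding RNAs *Meg3*, *Rian* and *Mirg*, whereas the paternal one gives the coding genes *Dlk1*, *Rtl1* and *Dio3*. At the other locus *H19*, a noncoding RNA, comes from the maternal copy and *Igf2*, a growth factor gene, from the paternal one, and the noncoding RNAs of the *Dlk1*-*Dio3* domain are known to be silenced in a part of cultured mouse stem cell lines. The counts do not separate the parental copies, so every level is the sum over both.

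Barcodes were taken as cells where 1000 or more genes were detected and no more than 5% of the UMIs were mitochondrial. There were 2236 such cells in the WT library, with 95965242 UMIs and a median of 38662 per cell. The library labelled S1/5 dKO had 2910 cells, 109020533 UMIs and a median of 34548.5 per cell. The libraries shared 0 cell barcodes. *Smad1*, an effector of BMP signalling and the first of the edited genes, was at 13.4 CPM (UMIs per 1000000 UMIs of the same cells) in WT and at 9.17 CPM under the S1/5 dKO label, a log2 ratio of −0.55 (95% interval −0.67 to −0.43). *Smad5* was at 6.05 and 9.09 CPM, a log2 ratio of 0.59 (0.44 to 0.74), and so was higher in the library labelled as lacking it. A tag at the 3′ end need not be lost with an edit elsewhere in the gene, so these levels do not check the labels, and the labels do not say which edited clone was used. *Id1*, a BMP target named after its values were seen, was at 323 CPM in WT and 161 CPM under the S1/5 dKO label, a log2 ratio of −1.01 (−1.03 to −0.98). All intervals are exact 95% intervals and cover counting error only.

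*Meg3* (ENSMUSG00000021268) lies at chr12:109541001-109571726 on the plus strand of GRCm38, 77.7 kb beyond the end of *Dlk1* (ENSMUSG00000040856, chr12:109452823-109463336, plus strand). *Mirg* (ENSMUSG00000097391) follows at chr12:109729764-109749460 and *Dio3* (ENSMUSG00000075707) at chr12:110279068-110281097, both on the plus strand, so that the domain from *Dlk1* to *Dio3* spans 828 kb. *H19* (ENSMUSG00000000031, chr7:142575529-142578143) and *Igf2* (ENSMUSG00000048583, chr7:142650766-142666816) lie 72.6 kb apart on the minus strand of another chromosome. One of the RefSeq promoters of *Meg3* is shown because the cells described next were grouped by *Meg3* and because it alone of its 2 entries held a searched motif. It is the window chr12:109540746-109541045 of GRCm38.p6, plus strand, with capitals at a match on the minus strand to TGCCGC, the letters known for ZFP57, which protects imprints, and at TGACGTCA, the cAMP response element.
Meg3 promoter: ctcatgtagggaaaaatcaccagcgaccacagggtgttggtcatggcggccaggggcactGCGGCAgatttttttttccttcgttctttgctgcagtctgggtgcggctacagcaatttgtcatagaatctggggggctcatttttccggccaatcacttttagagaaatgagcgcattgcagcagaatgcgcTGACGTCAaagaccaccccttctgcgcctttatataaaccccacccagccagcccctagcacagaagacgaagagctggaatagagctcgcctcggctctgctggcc

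The other *Meg3* entry had 0 matches. The matches shown began 190 and 57 bases before the RefSeq start of *Meg3* on which the window is placed, which is not the start given above for the counted gene. On both strands, TGCCGC was in 11.6% of 32851 RefSeq promoters of the same length and TGACGTCA in 1.79%. GGCGCC, a GC-rich SMAD box, was in 11.9% of promoters and in none of those of the members. A promoter entry was matched for 6 of the 7 listed genes, *H19* being without one, and the only other match was TGCCGC in 1 of 4 promoters of *Igf2*. A match describes letters in a window and shows no binding.

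The noncoding RNAs are also hosts of microRNAs, and a few mature sequences from RefSeq (GRCm38.p6) are shown to mark what each host carries, with the seed (bases 2 to 8) in capitals. MicroRNAs themselves were not measured. Within the gene spans RefSeq lists 2 mature microRNAs for *H19*, 3 for *Meg3* and 26 for *Mirg*. The pair shown for *H19* lies at chr7:142577112-142577133 and chr7:142577078-142577099 on the minus strand, and the pair for *Meg3* at chr12:109563710-109563731 and chr12:109563744-109563765 on the plus strand. The last pair, within *Mirg* at chr12:109735669-109735692 and chr12:109739132-109739152 on the plus strand, holds the only seed that occurs more than once among its 26, which have 25 seeds.
miR-675-5p: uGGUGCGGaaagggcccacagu
miR-675-3p: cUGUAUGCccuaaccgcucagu
miR-770-5p: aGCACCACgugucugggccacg
miR-770-3p: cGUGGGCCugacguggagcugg
miR-453: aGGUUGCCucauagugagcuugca
miR-496a-5p: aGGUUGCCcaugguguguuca

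*Meg3* was by far the most abundant of the 6 genes on the CPM scale, which counts 1 tag per captured transcript and is not scaled by length. Its level was 130 CPM among WT cells, from 12500 UMIs. The library labelled S1/5 dKO held 17897 *Meg3* UMIs, or 164 CPM. *Mirg* was at 8.37 and 10.8 CPM (803 and 1177 UMIs). *Dlk1*, a membrane protein of the NOTCH ligand family, was at 3.91 and 4.62 CPM (375 and 504 UMIs). *Dio3*, which inactivates thyroid hormone, was at 0.458 and 0.532 CPM (44 and 58 UMIs). The order *Meg3*, *Mirg*, *Dlk1*, *Dio3* was thus the same in both libraries, with intervals of neighbouring levels that did not overlap. *H19* had 4 UMIs in WT (0.0417 CPM) and 93 in the other library (0.853 CPM). It thus ranked below *Dio3* in WT and between *Dlk1* and *Dio3* in the other library, again with intervals that did not overlap, those of *H19* and *Dio3* in the latter case nearly touching at 0.689 and 0.688 CPM. Of the 93 *H19* UMIs, 14 lay in 2 cells with at least 10 UMIs of endoderm markers, so that narrow gap rests on few cells. *Igf2* had 3 and 2 UMIs, at the level of 3 counts below which no ratio is given, and the interval of its level overlapped that of *H19* in WT. Its exons are shared in part with another annotated gene, *Gm49394*, and its antisense gene *Igf2os* had 12 and 7 UMIs, so its few counts are uncertain.

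**Figure D1:**
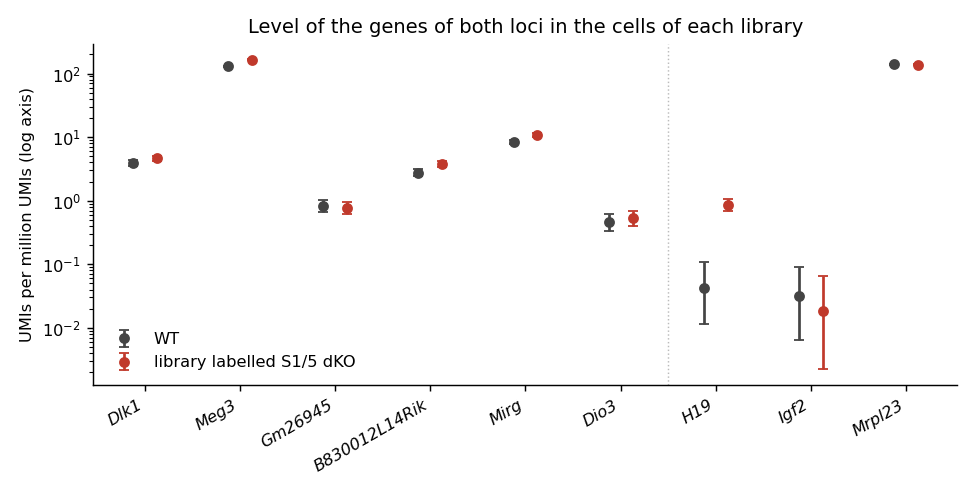
Level of each gene in CPM (log axis) in the cells of the WT library and of the library labelled S1/5 dKO, with exact 95% intervals for counting error; *Mrpl23* is a neighbour of *H19* that is not imprinted. *Meg3* is at 130 and 164, while *H19* is at 0.0417 and 0.853.

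Only *H19* differed at least 2-fold between the libraries. Its ratio was 20.5-fold (interval 7.73 to 76.7), a log2 ratio of 4.36 (2.95 to 6.26), toward the library labelled S1/5 dKO. Of the 5 members with at least 50 UMIs over both libraries 1 was at least 2-fold higher and 0 were lower, against 0.872% and 0.432% of 13654 genes, and 2 of those genes had a ratio above that of *H19*. *Meg3* was 1.26-fold higher (log2 0.33, 0.30 to 0.37), and 6.47% of the genes had a higher ratio. *Mirg* had a log2 ratio of 0.37 (0.24 to 0.50), with 5.64% of the genes above it, and *Dlk1* one of 0.24 (0.05 to 0.44). With each cell thinned to 10000 UMIs, the intervals of *Mirg* (−0.05 to 0.48) and *Dlk1* (−0.13 to 0.70) include no difference. The ratio of *Dio3* was 0.21 (−0.38 to 0.81), an interval that includes no difference. The 4 members in the *Dlk1*-*Dio3* domain therefore all had ratios above the median gene at −0.01, and those of *Meg3*, *Mirg* and *Dlk1* lay within the range from the 5th percentile, −0.44, to the 95th, 0.40.

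Other transcripts of the domain were below 2-fold as well where they had enough UMIs. *B830012L14Rik*, a noncoding transcript between *Rian* and *Mirg*, was at 2.75 and 3.79 CPM (log2 0.46, 0.24 to 0.69), a larger ratio than those of *Meg3* and *Mirg*. *Gm26945*, a short transcript within the annotated span of *Rian* that was added after its values were seen, was at 0.834 and 0.761 CPM (−0.13, −0.59 to 0.33). *Rtl1*, the retrotransposon-derived coding gene on the opposite strand of the domain, had 3 and 4 UMIs. Among the domain's other genes and flanks, 9 had enough UMIs and 0 differed at least 2-fold, with a median log2 ratio of −0.03, and *Begain* (−0.57, −1.17 to 0.01), named after its values were seen, was the farthest from 0. The flanks of *H19* and *Igf2* gave 3 genes, of which 0 differed at least 2-fold, with a median of −0.19, and *Ins2* had 0 UMIs in both libraries. The difference at *H19* thus had no counterpart in the measured genes beside it.

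Imprinted genes elsewhere in the genome are given by the copy that expresses them. Of 16 paternally expressed genes with enough UMIs 5 passed 2-fold toward the library labelled S1/5 dKO, namely *Mest* (log2 3.05), *Nnat* (2.99), *Plagl1* (2.65), *Peg10* (1.19) and *Usp29* (1.02), with a list median of 0.91. Of 13 maternally expressed genes 1 was lower, *Grb10* (−3.15), and the median was −0.21. Lists of factors that act on imprints showed little in their medians. *Dppa3*, listed under imprint protection and as a regulator of the domain, came close to 2-fold with a log2 ratio of 0.96 (0.73 to 1.19). Median log2 ratios were 0.05 for 9 genes of DNA methylation and demethylation, −0.03 for 12 factors of imprint protection, 0.05 for 8 genes of PRC2 and −0.13 for 5 genes named as regulators of the *Dlk1*-*Dio3* domain, with 0 genes at least 2-fold apart in each. The same held for 12 naive mESC markers (median 0.06), 10 G2/M genes (0.08), 10 G1/S genes (0.03), 8 genes of ER stress (0.01), 4 neural markers (0.05), 5 endoderm markers (−0.22) and 2 fibroblast markers (0.08). Single markers passed 2-fold in the remaining lists: *Lefty1* (1.13) of 5 primed markers, *Tcstv3* (3.48) and *Gm8300* (2.03) of 4 markers of the 2-cell-like (2C) state, *Gata3* (−1.01) of 5 trophoblast markers and *Mesp1* (−1.06) of 3 mesoderm markers. The 2C ratios rest on few cells, since 304 of 338 2C UMIs in WT lay in 3 cells and 1126 of 1162 in the other library in 6.

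*Meg3* was missing from more cells than its level alone gives. No *Meg3* UMI was found in 287 WT cells, 12.8% (11.5 to 14.3%), and 345 cells under the S1/5 dKO label lacked it, 11.9% (10.7 to 13.1%). If every UMI in a library had the same chance of being *Meg3*, 2.49% and 2.02% of cells would have none at their depths. A rate that varies from cell to cell along a gamma distribution gave 11.6% and 12.4%, close to the shares measured. Its spread was set from these same counts, cells without *Meg3* included, so the closeness is partly built in and tests nothing. The cells without *Meg3* can be described as the low end of 1 broad distribution, and these counts alone do not separate off a class of cells. With each cell thinned to 10000 UMIs, which left out 43 and 67 shallower cells, the shares were 38.2% and 34.8%, above what 1 rate gives in each (27.0% in WT). In the deeper cells where 1 rate gives at least 5 *Meg3* UMIs, the shares without any were 6.16% and 7.23%, beside 0.214% and 0.191% for 1 rate.

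Few genes of like abundance were missing as often. Among 685 genes at 100 to 200 CPM in WT, the median share of cells without a UMI was 3.13%, and among 699 in the other library 3.99%. The share of *Meg3* was 10.3 and 9.84 percentage points above that of 1 rate, whereas the median gene was 0.705 and 0.871 points above it. Only 8 and 11 genes had a larger gap, *Rpl39l* in both libraries and the BMP targets *Id3* in WT and *Id1* in the other among them. At the upper end a cell held up to 71 *Meg3* UMIs in WT and up to 98 in the other library. The top 10% of cells held 34.9% and 36.6% of all *Meg3* UMIs. The median cell was at 99.1 and 116.5 CPM, and the 90th percentile at 270.7 and 358.2 CPM, so the libraries differed most among the cells with much *Meg3*.

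**Figure D2:**
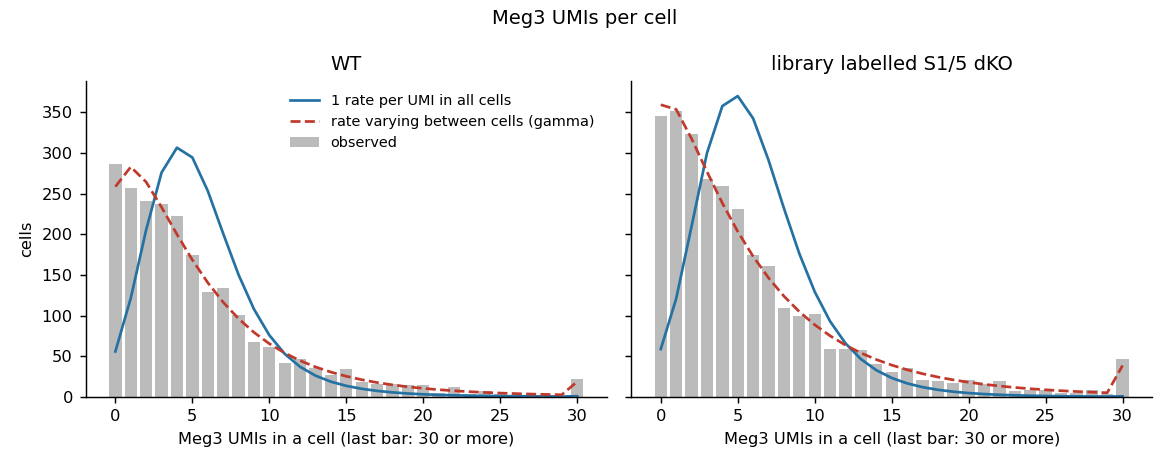
Number of cells by their *Meg3* UMIs in each library (bars, the last for 30 or more), beside the numbers for 1 rate per UMI (solid line) and for a rate that varies between cells (dashed line). Cells without a UMI make up 12.8% and 11.9%, above the 2.49% and 2.02% of 1 rate.

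Free RNA is a source of *Meg3* UMIs in any droplet. In barcodes of 10 to 100 UMIs, taken as empty droplets, *Meg3* was at 96.4 CPM (WT) and 88.3 CPM (S1/5 dKO label), and *Mirg* at 8.50 and 16.9 CPM. The part of free RNA in the low counts of single cells was not tested.

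For further comparison a *Meg3*-off cell was one with at least 10000 UMIs and no *Meg3* UMI, and a *Meg3*-positive cell one of that depth with a UMI. Of 2193 WT cells 248 were *Meg3*-off (11.3%), and of 2843 cells in the library labelled S1/5 dKO 292 were (10.3%). Their median depth was lower, at 32936.5 against 40015 UMIs in WT and 29969 against 35726 UMIs in the other library, and the share without *Meg3* was smaller in deeper cells, as given above, so a part of them can hold *Meg3* that was not captured. The other RNAs of the maternal copy were lower in the *Meg3*-off cells. *Mirg* was at 3.09 CPM in *Meg3*-off and 8.90 CPM in *Meg3*-positive WT cells, a log2 ratio of −1.52. In the library labelled S1/5 dKO it was at 3.34 and 11.5 CPM, a log2 ratio of −1.78. Over both libraries *Mirg* was 3.18-fold lower (log2 −1.67, −2.08 to −1.29). *B830012L14Rik* was 6.20-fold lower over both libraries (log2 −2.63, −3.70 to −1.74), from 4 and 6 UMIs in the *Meg3*-off cells of each, and its interval overlaps that of *Mirg*. *Gm26945* had a log2 ratio of −1.28 (−2.75 to −0.13).

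Of the paternally expressed genes of the domain, *Dlk1* was lower in *Meg3*-off cells with a log2 ratio of −0.82 (−1.29 to −0.38), made up of −0.62 for WT cells and −0.98 for cells under the S1/5 dKO label. For *Dio3* the ratio was −0.33 (−1.69 to 0.76), which its few UMIs leave undecided. Of the 4 members with enough UMIs besides *Meg3*, 0 were at least 2-fold higher and 1, *Mirg*, was lower, against 0.952% and 1.28% of 13653 genes. *Meg3*-off cells thus had less *Mirg* and *B830012L14Rik* and, by a smaller ratio, less *Dlk1*.

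Among all genes with at least 500 UMIs that lay on the same side of 1 in both libraries, the lowest ratios in *Meg3*-off cells were those of *Mirg*, *Sp5* (log2 −1.89), *Gna14* (−1.87), *Crybg3* (−1.24) and *B830012L14Rik*. *Sp5* is a transcription factor and a known target of WNT signalling. The highest were *Gm8300* (5.45), *Gm5039* (4.47), *Gm21761* (4.15), *Gm21818* (4.09) and *Gm20767* (3.22). These rest on a few cells that express genes of the 2C state. Cells with at least 10 UMIs of 2C markers numbered 3 in WT, 1 of them without *Meg3*, while the library labelled S1/5 dKO had 6, 4 of them without *Meg3*. Over both libraries all 4 of the 2C markers with enough UMIs were at least 2-fold higher in *Meg3*-off cells, namely *Tcstv3* (6.67), *Gm8300*, *Zscan4d* (4.03) and *Zscan4c* (3.71), of which the last pair are near-identical copies with uncertain counts. In WT alone *Tcstv3* (2.96) and *Gm8300* (1.67) were higher, whereas *Zscan4c* (−1.87) and *Zscan4d* (−0.62) were lower, and the ratios in the other library were between 7.36 and 8.02. The 11 markers summed to 56.6 against 1.77 CPM, with *Gm8300* the most abundant. Without cells of at least 10 UMIs of 2C or of endoderm markers, a filter chosen after the values were seen, the sum was 0.407 against 0.337 CPM. The 5 lowest genes were then the same, and the highest were *Hormad1* (0.87), *Fbp2* (0.86), *Ahnak2* (0.84), *Cul9* (0.82) and *Sct* (0.79), none of which reached 2-fold over both libraries. In single libraries *Hormad1* passed 2-fold in WT (1.02), and *Fbp2* (1.01) and *Cul9* (1.14) in the other library. The lowest ratios thus did not rest on these few cells, whereas the highest did.

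List medians between *Meg3*-off and *Meg3*-positive cells over both libraries were within 2-fold, except those of the 2C markers and of the 2 fibroblast markers. The 12 naive markers had a median log2 ratio of 0.02, and *Pou5f1*, a core pluripotency factor, one of 0.03. The 16 paternally expressed genes elsewhere gave over both libraries 0 genes at least 2-fold apart and a median of −0.11. In WT alone *Nnat* (−1.64) and *Plagl1* (−2.27) were lower, and *Plagl1* was at −1.01 over both without the cells of at least 10 2C or endoderm UMIs. The 9 genes of DNA methylation had a median of −0.20, beside −0.02 for all genes. All 10 G2/M genes were below 0, with a median of −0.25. The 4 neural markers had a median of −0.38 with 2 of them above 0, and the 5 primed markers a median of −0.24 with 1 above 0. By library the primed median was 0.02 with 3 above 0 in WT, and −0.25 with 0 above 0 in the other library. The part of the cell cycle in the *Meg3* classes was not tested. Single markers of other cell types passed 2-fold. *Gata6* and *Sox17* of endoderm had log2 ratios of 1.96 and 2.23, made up of −1.67 and −0.13 in WT and 2.89 and 3.98 in the other library. Without the cells of at least 10 2C or endoderm UMIs the ratios over both were 0.09 and 1.04. *Acta2* of fibroblasts was at 2.18, with 2.43 in WT and 1.89 in the other library, which became −0.11 and 0.20 without the top cell of each, while the markers *Col3a1*, *Dcn*, *Lum* and *Postn* had 0 UMIs in *Meg3*-off cells. *Kdr* of mesoderm was at −1.72 (−4.02 to −0.13), from 3 UMIs in *Meg3*-off cells.

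*Mirg*, *B830012L14Rik* and, less so, *Dlk1* were graded with the level of *Meg3*. In WT cells *Mirg* was at 3.09 CPM where *Meg3* was at 0, at 8.87 CPM where *Meg3* was between 100 and 200 CPM, and at 25.3 CPM in the 86 cells with at least 400 CPM. The same bins gave in the other library CPM values of 3.34, 11.2 and 29.0, the last from 217 cells. *B830012L14Rik* went from 0.476 CPM in the lowest to 8.82 CPM in the highest bin in WT and from 0.668 to 12.0 CPM in the other library. Each was thus higher in the highest than in the lowest bin by more than *Dlk1*, which went from 2.62 to 5.59 CPM and from 2.45 to 8.45 CPM. In WT the *Dlk1* intervals of these bins overlap (1.64 to 3.96 and 3.36 to 8.72 CPM). In the other library they do not (1.54 to 3.71 and 6.57 to 10.7 CPM). *Dio3* showed no such order in WT, where it was at 0.238 CPM in the lowest bin, 0.721 CPM between 50 and 100 CPM of *Meg3* and 0 UMIs in the highest, and in the other library it was at 0.557 and 0.857 CPM in the lowest and highest bin, from 5 and 7 UMIs.

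**Figure D3:**
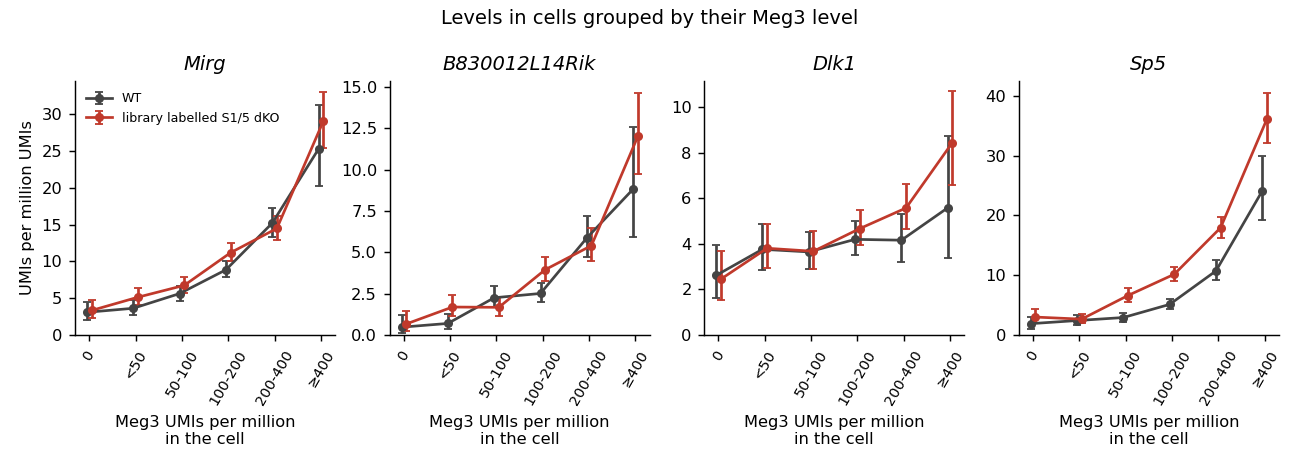
Level in CPM of *Mirg*, *B830012L14Rik*, *Dlk1* and *Sp5* in cells binned by their *Meg3* level, for each library, with exact 95% intervals. *Mirg* is at 3.09 and 3.34 in cells without *Meg3* and at 25.3 and 29.0 in cells with the most.

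Genes outside the domain are given in the same bins as a description only. *Sp5* was named for its low level in *Meg3*-off cells and *Mycn* for its correlation with *Meg3*, so their rise restates that choice. *Sp5* went from 1.90 to 24.1 CPM between the lowest and highest bin in WT, and the other library had 3.01 and 36.1 CPM. *Mycn*, a MYC family gene, went from 66.5 to 125 CPM and from 53.2 to 125 CPM. *Id2*, a BMP target added after its values were seen, went from 45.0 to 135 CPM in WT and, at a lower level throughout, from 11.2 to 31.5 CPM in the other library. *Pou5f1* was at 1319 CPM in the lowest and 1237 CPM in the highest bin in WT, and at 1344 and 1217 CPM in the other library, so a core pluripotency gene differed little where *Meg3* differed most.

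Before thinning, *Mirg* and *B830012L14Rik* were each found more often in cells with *Meg3* than in cells without it. *B830012L14Rik* was also found more often in cells with *Mirg*. Of 1949 WT cells with *Meg3*, 546 had *Mirg*, 28.0%, against 23 of 287 cells without *Meg3*, 8.01%. The other library gave 30.4% (779 of 2565) and 8.12% (28 of 345). A deep cell has more of every RNA, so the shares are also given at equal depth. Thinning also leaves more cells without a *Meg3* UMI. The parts of depth and of lost capture in a smaller gap were not tested. At 10000 UMIs in every cell the shares were 9.73% against 5.14% in WT and 11.3% against 5.77% in the other library, the same direction with a smaller gap. *B830012L14Rik* was in 11.0% of WT cells with and 1.39% of those without *Meg3*, and in 12.9% and 1.74% in the other library. At 10000 UMIs these were 3.32% against 1.08% and 4.85% against 2.63%. Between the pair of scarcer RNAs, *B830012L14Rik* was in 19.9% of WT cells with *Mirg* and in 6.30% of those without, and in 19.8% and 8.42% in the other library. At equal depth that gap was smaller, 4% (1.62 to 8.07%) against 2.33% (1.72 to 3.09%) in WT, where the intervals overlap, and 6.74% (4.04 to 10.4%) against 3.804% (3.10 to 4.62%) in the other library, where they overlap as well. All of *Meg3*, *Mirg* and *B830012L14Rik* were found in 111 WT cells and 159 cells of the other library, and none of them in 262 and 312. *Dlk1* was in 15.6% of WT cells with *Meg3* and 8.01% of those without, and in 15.7% and 5.80% in the other library, which at 10000 UMIs became 4.06% against 2.99% in WT, where the intervals overlap (3.07 to 5.25% and 1.94 to 4.38%), and 5.18% against 2.94% in the other library.

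As a description over the 2236 and 2910 cells of each library, which share depth, the levels of *Meg3* and *Mirg* had a Pearson correlation of 0.33 in WT and 0.26 under the S1/5 dKO label, and a Spearman correlation of 0.28 in both. Among 9690 genes, in cells of at least 10000 UMIs on a log scale, those most like *Meg3* were *Mirg* (Pearson 0.30 and 0.30), *Enah* (0.26 and 0.28), *Mycn* (0.23 and 0.28), *Sp5* (0.23 and 0.25) and *B830012L14Rik* (0.24 and 0.22). The least like it were *Gabarapl2* (−0.24 and −0.24), *Rpl21*, *Ass1*, *Dppa5a* and *Aes*. *Dlk1* stood at rank 644 with 0.06 and 0.11, and *Dio3*, which had too few UMIs to be ranked, had −0.02 and 0.01. *Mirg* and *B830012L14Rik* of the domain were thus among the 5 genes most like *Meg3*, and the coding *Dlk1* was not.

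*H19* was found in 4 WT cells, 0.179% (0.0488 to 0.457%), each with 1 UMI. In the library labelled S1/5 dKO it was found in 41 cells, 1.41% (1.01 to 1.91%). Among these, 22 cells had 1 UMI, 19 had at least 2 and 6 had at least 5, with a maximum of 9. The 19 cells with at least 2 held 71 of the 93 UMIs, 76.3%. Spread at 1 rate over the cells, 93 UMIs would have reached 91.3 cells, more than the 41 in which they were found, while in WT 1 rate gives the 4 cells found. Empty droplets held 0 *H19* UMIs in WT and 2 in the other library, the latter 1.02 CPM beside 0.853 CPM in its cells. The part of free RNA in the cells with 1 *H19* UMI was not tested. At 10000 UMIs per cell *H19* was found in 0 and 19 cells, the latter 0.668%. *H19*-positive cells of the library labelled S1/5 dKO were not deeper than the others, with a median of 32539 UMIs against 34556.

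**Figure D4:**
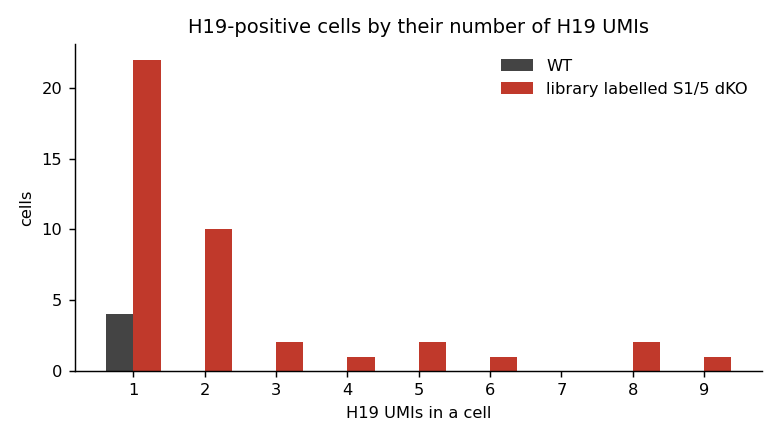
Cells by their number of *H19* UMIs in each library, on axes of UMIs and cells. All 4 positive WT cells have 1 UMI, while in the library labelled S1/5 dKO 19 of 41 have at least 2.

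*Igf2* was too scarce in both libraries for a comparison with *H19*. It had 0 UMIs in the *H19*-positive cells, which, taken as a limit of 3 counts, allows up to 13.7 CPM in the 4 WT cells and 1.92 CPM in the 41 cells of the other library. Of those 41 cells 38 had *Meg3*, 11 had *Dlk1* and 39 had *Mest*, while 2 of the 4 *H19*-positive WT cells lacked *Meg3*. Among all cells of the library labelled S1/5 dKO, *Meg3* was in 88.1%, *Dlk1* in 14.5% and *Mest* in 87.6%. *Meg3* was at 332 CPM in *H19*-positive and 162 CPM in *H19*-negative cells there, a log2 ratio of 1.04 (0.91 to 1.16). *Mirg* was at 21.8 and 10.6 CPM, also a log2 ratio of 1.04 (0.50 to 1.53). *Dlk1* had a ratio of 0.87 (−0.05 to 1.66) and *B830012L14Rik* one of 0.77 (−0.30 to 1.67), intervals that include no difference. *Dio3* had 0 UMIs in these cells, which by the same limit allows up to 1.92 CPM. Of the 4 members with at least 50 UMIs besides *H19* there were 2 at least 2-fold higher and 0 lower, against 8.91% and 3.74% of 13653 genes. Of the 3 with at least 500 UMIs the numbers were the same, against 3.2% and 3.34% of 9691 genes. *Meg3* and *Mirg* were thus higher in *H19*-positive cells of this library, among 310 genes of at least 500 UMIs that were at least 2-fold higher. Over single cells the correlation of *Mirg* with *H19* was weak, at −0.02 in WT and 0.05 in the other library (rank 1952).

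The genes with the highest ratios in *H19*-positive cells, among those with at least 500 UMIs and on the same side of 1 in both libraries, were in the library labelled S1/5 dKO *Klhl13* (log2 3.41), *Glipr2* (3.20), *Col4a1* (2.59), *Anxa3* (2.55) and *Fgf18* (2.25). Over both libraries their ratios were 3.39, 3.09, 2.12, 2.35 and 2.29. Single cells carried some of this. Without the top cell of each gene the ratios in the library labelled S1/5 dKO were 3.05 for *Klhl13*, found in 17 of the 41 cells, 2.26 for *Glipr2*, 1.57 for *Col4a1*, a basement membrane collagen, 2.24 for *Anxa3*, an annexin, and 1.49 for *Fgf18*, a growth factor. Among genes of at least 500 UMIs with none in the *H19*-positive cells of both libraries, of which there were 13, the most abundant were *Gm21761*, *Mirt1*, *Mkl1*, *Gm8300* and *Snhg10*. Of these *Gm21761* and *Gm8300* were found in only 1.08% and 0.627% of the *H19*-negative cells of the library labelled S1/5 dKO, too few for their absence from 41 cells to show a difference. Whether *Mirt1*, *Mkl1* and *Snhg10* were absent beyond what sparse counts give was not tested. Over cells of at least 10000 UMIs the genes most correlated with *H19* were *Anxa3* (Pearson 0.25 in the library labelled S1/5 dKO), *Glipr2*, *Sct* (0.31 there, −0.01 in WT), *Col4a1* and *Tpm1*, and the least *H2afz*, *Zfp42*, *Tdh*, *Dpy30* and *Hmgb2*. In sparse counts such values are descriptions, and those of WT rest on 4 cells.

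**Figure D5:**
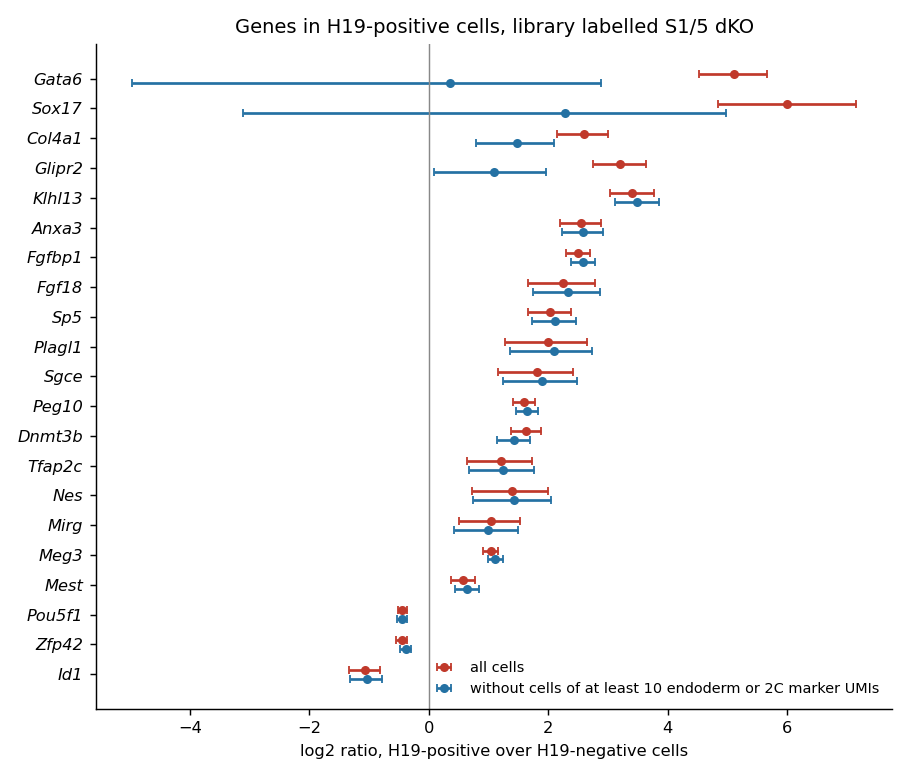
Log2 ratio of levels in *H19*-positive over *H19*-negative cells of the library labelled S1/5 dKO for genes of the loci and for named genes, with exact 95% intervals, in all cells (red) and without cells of at least 10 endoderm or 2C marker UMIs (blue). In all cells *Klhl13* is at 3.41 and *Meg3* at 1.04, while *Gata6* goes from 5.11 to 0.35 without those cells.

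The lists differed in *H19*-positive cells of the library labelled S1/5 dKO as follows. Of 16 paternally expressed genes elsewhere 3 were at least 2-fold higher, *Plagl1* (log2 2.00), *Sgce* (1.82) and *Peg10* (1.59), with a median of 0.53 beside 0.07 for all genes, and *Mest* was at 0.58. Of 13 maternally expressed genes 5 were above 0, 0 were at least 2-fold higher and 1, *Trappc9* (−1.34), was lower. Of 5 primed markers 2 were at least 2-fold higher, the de novo methyltransferase gene *Dnmt3b* (1.63) and the NODAL inhibitor gene *Lefty2* (1.21, and 0.40 without its top cell), with a median of 0.99. Without cells of at least 10 2C or endoderm UMIs all 5 were, *Lefty1* (1.00), *Otx2* (1.01) and *Pou3f1* (1.05) being the others. Of 12 naive markers *Dppa3*, which protects the maternal genome from demethylation in the zygote, was higher (1.48, and 0.96 without its top cell) and *Prdm14* lower (−1.96, from 1 UMI), with a median of −0.30, and *Tbx3* joined the latter at −1.18 without those cells. *Pou5f1* was at −0.45 and *Zfp42* at −0.46. *Aff3*, a known regulator of the *Dlk1*-*Dio3* domain, had a ratio of 1.91 from 3 UMIs (−0.41 to 3.53). Of 4 neural markers *Nes* (1.39) and *Pax6* (1.09) were above 2-fold, but the other two were below 0, and the list summed to 134.7 CPM in *H19*-positive and 166.5 CPM in *H19*-negative cells. Of 5 trophoblast markers 3 were at least 2-fold higher, namely *Cdx2* (2.65), *Gata3* (1.90) and *Tfap2c* (1.21), the first pair from 2 UMIs each.

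Endoderm markers were high in a pair of the *H19*-positive cells. Of 5 such markers 4 were at least 2-fold higher in *H19*-positive cells, *Sox17* (log2 6.01), *Gata6* (5.11), *Sox7* (2.65) and *Dab2* (2.41). The 9 markers summed to 53.2 against 2.21 CPM, with *Gata6* the most abundant, and *Afp* and *Apoa1* were at 0. Cells with at least 10 endoderm UMIs, a limit chosen after the values were seen, numbered 1 among WT cells and 4 under the S1/5 dKO label, and of the latter 2 held 5 and 9 *H19* UMIs, 14 of the 93 in all. *Meg3* was at 14.6 CPM in those 4 cells and absent from 3 of them. Without these and the 2C cells the markers summed to 2.72 against 1.99 CPM, the former from only 4 UMIs. *Gata6* was at 0.35, *Sox17* at 2.28 and *Sox7* at 1.14, each from 1 UMI in *H19*-positive cells, and *Dab2* had 0 UMIs. *Glipr2* then had a ratio of 1.10 and *Col4a1* one of 1.48, while *Meg3* was at 1.11 and *Mirg* at 0.98. The part of endoderm-like cells in the remaining ratios was not tested. In this library fibroblast markers, all 8 of them, and all 11 of the 2C markers were at 0 UMIs in *H19*-positive cells. The fibroblast markers summed to only 2.15 CPM in the others, near the 1.92 CPM that 0 UMIs allows by the limit of 3 counts, so their absence shows little. The 2C markers summed to 10.8 CPM in the others, and to 0.336 CPM without the few cells of at least 10 2C or endoderm UMIs. Of the 8 fibroblast markers 7 were at 0 in the 4 *H19*-positive WT cells, where *Acta2* had a log2 ratio of 4.52 from only 6 UMIs.

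Levels by *H19* counts are given as a description, since the grades with 1 and with at least 2 *H19* UMIs held only 22 and 19 cells. In the library labelled S1/5 dKO, for 0, 1 and at least 2 *H19* UMIs per cell, *Meg3* was at 162, 397 and 251 CPM. *Peg10* was at 54.4, 101 and 244 CPM, and *Pou5f1* at 1297, 1057 and 819 CPM. *Col4a1* was at 5.42, 1.15 and 72.5 CPM, so its ratio came from the 19 cells with at least 2 *H19* UMIs. These include both endoderm marker cells with *H19*, and the ratio of *Col4a1* was 1.57 without its top cell. *Meg3* was highest in the cells with 1 *H19* UMI, but whether single cells carried this order, or that of *Peg10*, was not tested. *Mirg* was at 10.6, 25.3 and 17.4 CPM in the same order. Its interval in cells with at least 2 *H19* UMIs (8.99 to 30.4) overlaps that of cells without *H19* (10.0 to 11.3).

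Cells with *Sp5* and *Fgfbp1*, of which the latter was added after its values were seen, are given as a description, since *Sp5* was named for its low level in *Meg3*-off cells and their *Meg3* values restate that. In the 283 such cells of the library labelled S1/5 dKO *Meg3* was at 283 CPM against 150 CPM in the rest, 3.89% against 12.7% lacked it, and *H19* was found in 16 cells, 5.65% (3.27 to 9.02%), against 25 cells, 0.952% (0.617 to 1.40%). In the 140 such cells of WT *Meg3* was at 205 against 124 CPM, and 5.00% against 13.4% lacked it, at median depths of 43515 and 38326.5 UMIs. In *H19*-positive cells *Sp5* had a log2 ratio of 2.03 and *Fgfbp1*, a carrier of fibroblast growth factors, one of 2.50, and *Id1*, a BMP target, one of −1.07. The *H19* shares above and these ratios of *Sp5* and *Fgfbp1* are the same association seen from either side.

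*Mest*, one of several imprinted genes at a higher level under the S1/5 dKO label, was found in 250 WT cells and 2548 cells under that label. *Meg3* was at 147 CPM in WT cells with and 128 CPM in those without *Mest*, and at 167 and 134 CPM in the other library, where 9.50% of cells with and 28.5% of cells without *Mest* lacked *Meg3*, at median depths of 35633 and 27756.5 UMIs.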

How the data were processed

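The authors deposited raw UMI counts per gene and barcode for 2 libraries, 1 per group, made with Cell Ranger 3.0.2 on mm10 from 10x 3′ libraries. All barcodes of the kit were included, and cells were kept at 1000 or more genes and at most 5% mitochondrial UMIs. Doublets were not called. Counts were summed over cells of a class, divided by the class total (CPM) and compared as ratios with exact Poisson and binomial intervals (Python 3.11.15, numpy 2.4.6, scipy 1.17.1, pandas 2.3.3). TMM scaling (R 4.3.3, edgeR 4.0.16) was an alternative. Genes with 50 or more UMIs over both libraries were compared. The text names, per comparison, the members, the 5 highest and 5 lowest genes with at least 500 UMIs, the 5 genes most and least correlated with *Meg3* and *H19*, and list genes at least 2-fold apart. The last are those between libraries, in *Meg3*-off cells over both libraries, and in *H19*-positive cells of the library labelled S1/5 dKO. List genes that passed only in other settings are named in part. Others, among them *Id1*, *Id2*, *Id3*, *Rpl39l* and *Pou5f1*, were added after their values were seen. Members and lists were chosen with earlier results of these data known. On simulated counts for 13653 genes all 200 changed genes had the right direction and 11 of 13453 unchanged genes passed 2-fold. The changed genes were set at a log2 ratio of 2 in either direction, and counts were drawn with counting error only. The simulation thus does not check smaller ratios or RNAs that vary between cells or libraries.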

Additional observations from a re-analysis of the deposited data

How the results depend on the processing

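Of 83 alternatives 61 left a value within its counting interval or within 1.5 times the main count and 22 moved it; 10 were chosen after seeing the data. The log2 ratio of *Meg3* between libraries ranged from 0.33 to 0.36, *Dlk1* from 0.24 to 0.28, *Dio3*, whose interval includes 0, from −0.02 without cells of over 2 times the median UMIs, the only change of sign among these, to 0.30, *Mirg* from 0.22 (cells thinned to 10000 UMIs) to 0.42 and *H19* from 4.35 to 4.82. Genes at least 2-fold apart numbered 178 of 13654 at 50 UMIs, 402 of 15166 at 20, 35 of 9691 at 500 and 1575 of 20830 at 1. The share of cells without *Meg3* in WT was 38.2% thinned to 10000 and 21.0% thinned to 20000 UMIs, 10.1% and 6.16% in cells where 1 rate gives at least 3 and at least 5 *Meg3* UMIs, and 11.4% at 2000 genes. In the library labelled S1/5 dKO these were 34.8%, 17.7%, 9.62%, 7.23% and 10.6%. The ratio of *Mirg* in *Meg3*-off WT cells was −2.15 with at least 5 *Meg3* UMIs given by 1 rate. *Mirg* among WT cells with *Meg3* was 9.73% thinned and 25.5% without cells of high UMIs, and 11.3% thinned in the other library. *H19* was in 0% of WT cells thinned or at 2 or more UMIs, and in 0.668% and 0.653% in the other library. Thinning gives fewer cells with a UMI by construction; the causes of the other changes were not tested. Ratios of *Igf2*, and of *H19* after thinning, gave no value because of too few counts, and those of *Rian* were not run. No paired analysis was possible because each group had 1 library and no result comes from a test. Depth limits what can be said of *Dio3*, *Igf2* and WT *H19*.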
